A study of Mus musculus with 9 samples.

Results

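The genes described here are 10 components of TGF-beta signalling in the mouse: the ligand Tgfb1, the receptors Tgfbr1, Tgfbr2 and Tgfbr3, the receptor-activated Smads Smad2 and Smad3, the inhibitory Smads Smad6 and Smad7, and the ubiquitin ligases Smurf1 and Smurf2. ZEB1 occupancy around them was read from CUT&RUN, in which a nuclease tethered to an antibody frees the DNA beside the antibody's target. A consensus peak was assigned to a gene when its centre lay inside the gene (32 peaks), or when the nearest boundary of a protein-coding gene, its start or end, was within 50 kb and was that gene's (21 peaks). This gave 53 of the 23623 consensus peaks (0.224%), near 9 of the 10 genes. An assigned gene is a neighbour of the peak and not a shown target.

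The cells were PB3, a mouse breast cancer line labelled Er-/Pr-/Her2-. The treated groups received eribulin, an inhibitor of microtubule growth, at 300 nM for 24, 48 or 72 h, and the control group was untreated, with 2 ZEB1 libraries in each of the 4 groups. The protocol speaks of PB3 cells throughout, while the labels name the treated cells PB3_ERI and the untreated cells PB3-Parental, without saying how these names relate. A single library with IgG in place of the ZEB1 antibody, from untreated cells, served as background in the authors' peak lists and entered no test, and the files hold occupancy and no expression.

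TGF-beta ligands bind the receptor TGFBR2, which recruits and phosphorylates TGFBR1, and TGFBR3 (betaglycan) presents ligand to them. TGFBR1 then phosphorylates SMAD2 and SMAD3, which join SMAD4 and enter the nucleus to regulate genes. SMAD6 and SMAD7 are induced inhibitors of this path, and SMURF1 and SMURF2 are E3 ubiquitin ligases that mark Smads and, through SMAD7, the receptors for destruction. In mammary epithelial cells TGF-beta is a known inducer of epithelial-mesenchymal transition, in which ZEB1 represses epithelial genes.

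Counts in consensus peaks summed to between 326944 and 765015 per library, with a median count per peak between 10 and 24. Values are given as CPM, the counts scaled to the TMM-adjusted total in tested peaks, so that 1 read is worth between 1.32 and 3.14 CPM, and the unit does not correct for peak length. Replicates of a group differed by about as much as counting error (chi-square per degree of freedom between 0.931 and 1.06, against 1.12 to 2.28 between groups). Nothing in the labels tells whether replicates came from separate cultures, so that p-values reflect the spread of these libraries alone, which may be technical. No added DNA standard was used for scaling here, so each change is relative to the rest of the library. All positions are on the mouse build GRCm38.

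Promoter sequence was at hand for 7 of the 10 genes. Peaks covered 250 bases of the Smad6 promoter, 198 of that of Smad3 and 49 of that of Smurf1, which are not shown. The 3 shown, which a peak also reached, were chosen after they were seen. They are Smurf2, whose start held 3 reads in untreated cells and more under treatment, and the receptor genes Tgfbr1 and Tgfbr2, whose start peaks had no call. Each sequence shown is the 250 bases before the start site, read along the gene's strand, from RefSeq on GRCm38.p6. Capitals mark the Smad element CAGAC or its other strand GTCTG. The Smurf2 promoter (chr11:106920716-106920965, minus strand) is 82.0% G and C, and 97 of its 250 bases, with the element at position -203 from the start site, lie in the consensus peak. The Tgfbr2 promoter (chr9:116175364-116175613, minus strand) is 58.4% G and C, lies in a peak over its whole length, and holds the element at -160. The Tgfbr1 promoter (chr4:47352972-47353221, plus strand) is 74.8% G and C, has 236 bases in a peak, and has no match.
Smurf2: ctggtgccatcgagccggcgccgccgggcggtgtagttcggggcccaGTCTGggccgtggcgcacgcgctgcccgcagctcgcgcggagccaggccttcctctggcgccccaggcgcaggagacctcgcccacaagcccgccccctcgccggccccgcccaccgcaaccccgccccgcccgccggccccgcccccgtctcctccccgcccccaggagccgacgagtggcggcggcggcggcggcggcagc
Tgfbr2: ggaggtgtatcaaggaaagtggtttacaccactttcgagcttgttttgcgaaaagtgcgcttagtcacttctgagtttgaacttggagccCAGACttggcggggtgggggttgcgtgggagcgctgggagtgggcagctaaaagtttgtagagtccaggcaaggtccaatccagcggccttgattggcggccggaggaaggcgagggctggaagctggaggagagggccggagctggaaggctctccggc
Tgfbr1: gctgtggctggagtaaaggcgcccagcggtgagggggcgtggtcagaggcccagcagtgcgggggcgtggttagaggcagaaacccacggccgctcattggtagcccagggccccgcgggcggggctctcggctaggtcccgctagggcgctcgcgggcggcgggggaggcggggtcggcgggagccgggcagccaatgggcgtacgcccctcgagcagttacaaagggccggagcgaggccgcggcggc

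Over all 32851 promoters of the table the median content of G and C was 52.4%. Both strands were searched for 4 motifs in the 250 bases. The ZEB1 E-box CAGGTG, which on the other strand reads CACCTG, was in 17.2% of all promoters and in none of the 8 promoters of these genes. The wider E-box CANNTG, of which the ZEB1 E-box is a case, was in 66.2% of all promoters and, among these genes, in the second promoter of Tgfbr1 alone, which no peak touched. The Smad element was in 42.2% of all promoters and in those of Tgfbr2, Smurf1 and Smurf2 and the second of Tgfbr1. The AP-1 site TGANTCA was in 6.75% of all promoters and in none of these. A match is a run of letters and not a shown site, and the peaks beyond promoters were not searched.

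The 53 peaks were spread very unevenly over the genes. Smad3 had 19, of which 17 lay inside the gene, while Smad7 and Smurf1 had 7 each, Tgfbr2 6, Tgfbr3 5, Smad6 4, Smad2 and Smurf2 2 each, Tgfbr1 1 and Tgfb1 none. Of the 53, 54.7% lay inside a gene, 18.9% within 1 kb of a gene boundary and 26.4% outside, against 36.2%, 28.3% and 35.5% of all consensus peaks. Mean CPM over the 8 libraries ran from 5.55 to 133 with a median of 42.3, against a median of 32.1 over all peaks. Peak width had a median of 402 bp (61 to 1094 bp), against 347 bp over all peaks.

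The authors deposited 1 peak list per group. Of the 53 peaks, 46 (86.8%) overlapped the untreated list, 37 (69.8%) the 24 h list, 31 (58.5%) the 48 h list and 31 (58.5%) the 72 h list. Over all consensus peaks the shares were 78.7%, 63.0%, 60.2% and 51.6%, so the lists shrank with treatment in the whole table as they did around these genes. In all 4 lists were 25 of the 53 peaks (47.2%, against 34.7% of all peaks). In the untreated list alone were 11 peaks (20.8%, against 19.0% of all peaks), and 4 of these lay inside Tgfbr3, 3 near Smad3, 2 near Smurf1 and 1 each near Tgfbr2 and Smad7. A single peak, 22.29 kb outside Smad7, was in all 3 eribulin lists and not in the untreated list, the pattern of 2.69% of all peaks. The lists are 1 per group and their lengths differ, so no test was made between them.

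**Figure D1:**
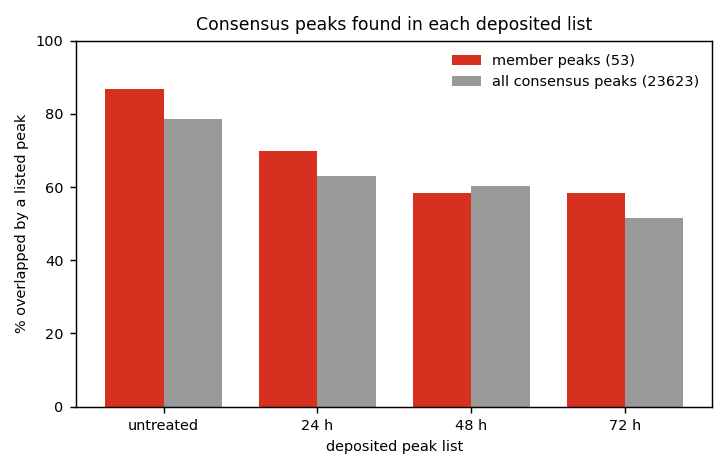
Share of consensus peaks (y axis, percent) overlapped by a peak of each deposited list (x axis), for the 53 peaks near TGF-beta pathway genes (red) and for all 23623 (grey). The red bars fall to 58.5% after 72 h, against 86.8% in the untreated list, and the grey bars to 51.6%, against 78.7%.

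Of the 53 peaks, 45 had enough reads to be tested, and the other 8, at a mean CPM of 5.55 to 13.2, are counted only in the lists. Fold changes are log2 of the first-named group over the second, with ± the standard error of the fit. A peak was called at an edgeR quasi-likelihood p below 0.05 after Benjamini-Hochberg adjustment over all 21192 tested peaks. Over the mean of the 3 treated times against untreated cells, 3 peaks rose and 6 fell, 9 of 45 (20.0%), where 16.8% of all tested peaks were called (8.27% higher and 8.53% lower). Among the 3 that rose are the Smurf2 peak and the Smad7 peak 22.29 kb outside its gene. Both passed the filter on low counts only through treated groups, in which they are high. Their calls are thus no support for this count or for those at single times. The called Smad3 peak 11.81 kb from its start and the Tgfbr3 peak 89.13 kb inside, called after 48 h, were in the untreated list alone. They are thus in the table only through the group in which they are high. Their calls are no support for the counts of falls either. At 24 h, 2 rose and 3 fell (11.1%, against 11.0% of all tested peaks, 6.44% higher and 4.61% lower). At 48 h, 3 rose and 7 fell (22.2%, against 11.5%, 6.09% higher and 5.41% lower). At 72 h, 1 rose and 5 fell (13.3%, against 12.6%, 6.84% higher and 5.74% lower). These 4 comparisons share the untreated libraries. The median log2 fold change of the 45 was -0.0441 over the mean, against -0.00673 over all tested peaks, and lay between -0.0456 and 0.0791 at the single times. The called shares at 24 and 72 h were thus close to those of the whole table, with more calls than the table's share after 48 h, a difference that was not tested.

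By position, all 8 tested peaks at gene boundaries but that of Smurf2 lacked a call over the mean, and Smurf2's was higher. Inside genes, 4 of 24 fell and none rose. Outside genes, 2 of 13 rose and 2 fell. Of all tested boundary peaks 12.8% were called higher and 2.41% lower, with 7.28% higher and 8.90% lower inside genes and 5.64% higher and 13.0% lower outside. The difference between these genes and the table was not tested.

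DESeq2, run on the same peaks and groups, gave an adjusted p to 38 of the 45 peaks over the mean and to 29, 27 and 29 at 24, 48 and 72 h, and called none of them, with 7, 4, 7 and 6 peaks at an unadjusted p below 0.05 over the mean and at 24, 48 and 72 h, where edgeR had 16, 12, 13 and 13. Of all peaks to which DESeq2 gave an adjusted p it called 1.51% of 15029 over the mean, 0.788% of 10920 after 24 h, 0.784% of 9688 after 48 h and 1.07% of 10510 after 72 h. In edgeR, 15 of the 45 peaks were called in at least 1 of the 5 comparisons used here. The share of all tested peaks called in at least 1 of the 5 was not computed. The 15 can thus not be set against the shares of single comparisons. These peaks held 34 called values. Of the 30 of these against untreated cells, 23 kept their call without control replicate 1 and 4 without control replicate 2, the deeper control library, and none changed sign. The calls below are edgeR's, and the libraries without which a call was lost are named with each.

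**Figure D2:**
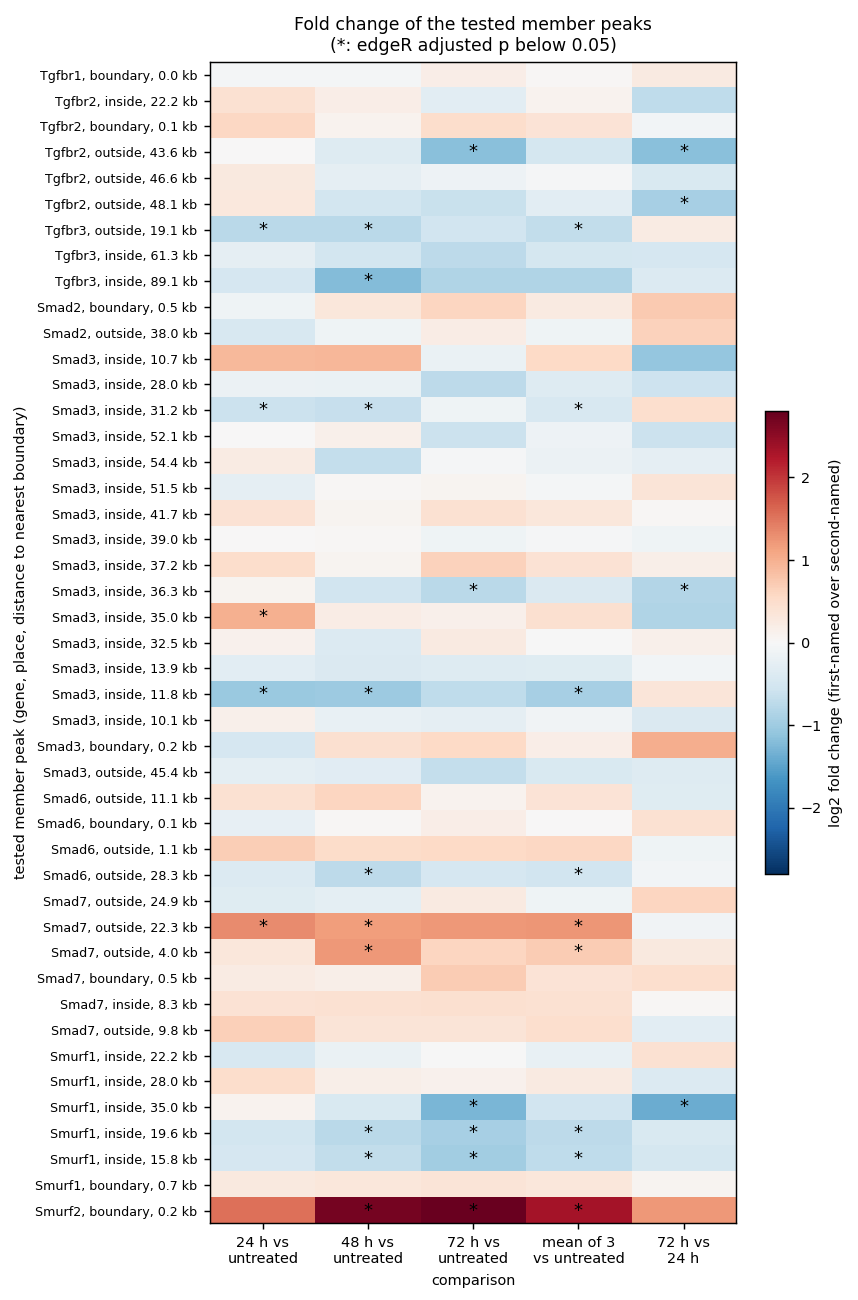
Log2 fold change (colour; red higher, blue lower in the first-named group) of the 45 tested peaks (rows, by gene, place and distance of the peak centre to the nearest gene boundary in kb) in 5 comparisons (columns), with an asterisk at an edgeR adjusted p below 0.05. Smad7 and Smurf2 hold the red called rows over the mean of the 3 times, and the called rows of Tgfbr3, Smad3, Smad6 and Smurf1 over that mean are blue.

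Tgfb1, the ligand (chr7:25687002-25705077), had no consensus peak assigned to it. Tgfbr1, the receptor kinase that phosphorylates SMAD2 and SMAD3, had a single peak across its start site (chr4:47352986-47353454), which is also within the long noncoding gene Gm32435. It held 57.8 and 56.6 CPM in untreated cells, 46.0 and 61.4 after 24 h, 54.2 and 56.5 after 48 h, and 53.2 and 81.6 after 72 h. The treated and untreated libraries overlapped, except that both 48 h libraries were just below both untreated ones, and the second 72 h library stood above the rest. The log2 fold change over the 3 times was 0.03 ± 0.214 (adjusted p = 0.945). In the authors' lists the peak was 10.8 to 11.6 times the IgG library in each of the 4 groups.

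Tgfbr2, the receptor that binds the ligand, had 6 peaks, and none of the 5 tested was called over the mean of the 3 times or at 24 or 48 h. The peak over its start site (chr9:116175340-116175646), the promoter printed above, held 30.3 and 24.5 CPM in untreated cells, 35.8 and 42.3 after 24 h, 27.8 and 29.1 after 48 h, and 32.4 and 43.9 after 72 h. It was in the untreated and 24 h lists, at 4.54 and 4.11 times the IgG library in the authors' values, and not in the 48 and 72 h lists. Its untreated and treated CPM overlapped, with a log2 fold change of 0.38 ± 0.291 (adjusted p = 0.395). The signal that moved lay 43.56 kb upstream (chr9:116218682-116219169), in a group of 3 peaks between 43.56 and 48.15 kb. That peak held 90.8 and 93.3 CPM in untreated cells, 68.2 and 115 after 24 h, 60.9 and 85.5 after 48 h, and 32.4 and 53.3 after 72 h. Both 72 h libraries were below all others, and the 24 h libraries lay on either side of the untreated ones. At 72 h the peak fell, with a log2 fold change of -1.16 ± 0.291 (adjusted p = 0.00413). Without control replicate 2 the adjusted p was 0.058 and without 72 h replicate 1 it was 0.184. Over the mean of the 3 times its value was -0.50 ± 0.194 (adjusted p = 0.0598), and the other 3 peaks with no call in any comparison lay between -0.04 and 0.38.

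Tgfbr3, the co-receptor betaglycan, had 5 peaks, of which 3 were tested, all with a negative log2 fold change over the mean. The share of all tested peaks with a negative value was not computed. Of all tested peaks outside genes, 13.0% were called lower over the mean, and 1 of the 3 Tgfbr3 peaks, outside the gene, was called. This peak, 19.07 kb beyond the lower-coordinate end of the gene (chr5:107087267-107087732) and within the long noncoding gene Gm42146, held 118 and 122 CPM in untreated cells, 64.8 and 76.4 after 24 h, 70.1 and 73.6 after 48 h, and 94.8 and 69.0 after 72 h. All 6 treated libraries were below both untreated ones, and the first 72 h library was the nearest to them. It fell over the mean of the 3 times (-0.68 ± 0.164, adjusted p = 0.00172), after 24 h (-0.76 ± 0.196, adjusted p = 0.0051) and after 48 h (-0.75 ± 0.195, adjusted p = 0.00553). At 72 h the value was -0.53 ± 0.219 (adjusted p = 0.0944). Without control replicate 2 the adjusted p was 0.135 over the mean, 0.144 after 24 h and 0.139 after 48 h, without 24 h replicate 1 it was 0.0715 after 24 h, and without 48 h replicate 1 it was 0.058 after 48 h.

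Inside Tgfbr3, 89.13 kb from its nearest boundary (chr5:107200393-107200602), a weaker peak held 24.8 and 35.2 CPM in untreated cells, 17.1 and 27.3 after 24 h, 13.2 and 13.7 after 48 h, and 16.2 and 18.8 after 72 h. The 48 and 72 h libraries were below both untreated ones, and those of 24 h overlapped them. It fell after 48 h (-1.21 ± 0.401, adjusted p = 0.0338). The adjusted p was 0.472 without control replicate 2, 0.16 without 48 h replicate 1 and 0.0967 without 48 h replicate 2. This peak was in the untreated list alone, as were the other 3 peaks inside the gene. It is thus in the table only through the untreated group, in which it is high, and its p-value describes a peak chosen that way.

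Smad2, which carries the receptor's signal to the nucleus together with Smad3, had 2 peaks and no call. The stronger, 0.49 kb from its lower-coordinate boundary (chr18:76241155-76241997), held 38.5 and 53.5 CPM in untreated cells, 34.1 and 51.8 after 24 h, 63.5 and 54.7 after 48 h, and 83.2 and 59.6 after 72 h. The 48 and 72 h libraries lay above both untreated ones and those of 24 h did not. The log2 fold change was 0.26 ± 0.226 over the mean (adjusted p = 0.455) and 0.60 ± 0.282 after 72 h (adjusted p = 0.144).

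Smad3 held the most peaks, 17 of them tested, and among these 2 fell over the mean, none rose, and the other 15 were not called. Both that fell were inside the gene. Of all tested peaks inside genes, 8.90% were called lower over the mean and 7.28% higher. The strongest Smad3 peak, with 133 mean CPM, lay inside the gene 31.18 kb from its end (chr9:63677502-63678400). It held 190 and 147 CPM in untreated cells, 98.9 and 115 after 24 h, 87.3 and 127 after 48 h, and 146 and 154 after 72 h. The 24 and 48 h libraries were below both untreated ones, while those of 72 h lay between 146 and 154 and overlapped them. The peak fell after 24 h (-0.60 ± 0.172, adjusted p = 0.0136), after 48 h (-0.64 ± 0.172, adjusted p = 0.00827) and over the mean (-0.45 ± 0.142, adjusted p = 0.0187). At 72 h the value was -0.13 ± 0.183 (adjusted p = 0.70). Without control replicate 1 the adjusted p was 0.267 over the mean, 0.17 after 24 h and 0.114 after 48 h. Without 48 h replicate 1 it was 0.0693 over the mean and 0.298 after 48 h, and without 24 h replicate 1 it was 0.126 after 24 h.

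The other Smad3 peak that fell over the mean lay 11.81 kb into the gene from its start site (chr9:63745978-63746384) and was in the untreated list alone. It is thus in the table only through the untreated group, in which it is high, and its p-values describe a peak chosen that way. The peak held 27.5 and 45.9 CPM in untreated cells, 18.8 and 19.1 after 24 h, 19.8 and 18.8 after 48 h, and 18.5 and 31.4 after 72 h. The 24 and 48 h libraries were below both untreated ones, and the second 72 h library lay between them. The log2 fold change was -0.92 ± 0.289 over the mean (adjusted p = 0.0183), -1.04 ± 0.351 after 24 h (adjusted p = 0.038) and -1.01 ± 0.348 after 48 h (adjusted p = 0.0431). Without control replicate 2 the value over the mean was -0.40, and the adjusted p was 0.704 over the mean, 0.666 after 24 h and 0.679 after 48 h. It was 0.0634 over the mean without 72 h replicate 1, 0.127 and 0.169 after 24 h without 24 h replicate 1 or 2, and 0.151 and 0.132 after 48 h without 48 h replicate 1 or 2.

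Between 34.95 and 36.28 kb into Smad3 lay a pair of neighbouring peaks called at different times against untreated cells. For 72 h against 24 h they were at -0.83 (edgeR adjusted p = 0.0272) and -0.84 (edgeR adjusted p = 0.0793), in the order below. No difference between the 2 peaks was tested. The first (chr9:63721447-63721971) held 96.3 and 104 CPM in untreated cells, 113 and 102 after 24 h, 75.4 and 61.6 after 48 h, and 41.6 and 84.7 after 72 h. The second (chr9:63722749-63723340) held 33.0 and 32.1 CPM in untreated cells, 52.9 and 73.7 after 24 h, 31.8 and 44.5 after 48 h, and 39.3 and 31.4 after 72 h. In the first peak the 48 and 72 h libraries were below both untreated ones, and in the second the 24 h libraries alone were both above them. The first fell after 72 h (-0.75 ± 0.253, adjusted p = 0.0355), and the adjusted p was 0.232 without control replicate 2 and 0.684, with a value of -0.26, without 72 h replicate 1. The second rose after 24 h (0.99 ± 0.278, adjusted p = 0.0113), and the adjusted p was 0.181 without control replicate 2 and 0.254 without 24 h replicate 2. The 13 tested Smad3 peaks with no call in any comparison lay between -0.42 and 0.55 over the mean, among them the start-site peak (chr9:63758047-63758308) at 0.18 ± 0.272 (adjusted p = 0.694).

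Smad6, an inhibitory Smad known mainly for damping the BMP branch, had 4 peaks, all tested. Of all tested peaks outside genes, 13.0% were called lower over the mean, and 1 of the 4 Smad6 peaks, outside the gene, fell. That peak, 28.28 kb upstream of its start (chr9:64049815-64050908), lies at the start of the long noncoding gene 1110036E04Rik. It held 107 and 118 CPM in untreated cells, 93.8 and 81.9 after 24 h, 59.5 and 80.4 after 48 h, and 83.2 and 81.6 after 72 h. All 6 treated libraries were below both untreated ones. It fell over the mean (-0.53 ± 0.166, adjusted p = 0.0186) and after 48 h (-0.73 ± 0.201, adjusted p = 0.00922). The adjusted p was 0.362 over the mean and 0.216 after 48 h without control replicate 2, and 0.0532 and 0.21 without 48 h replicate 1. Nearer the gene, the peak 1.05 kb upstream (chr9:64022856-64023417) was at 0.59 ± 0.233 (adjusted p = 0.0666) and the start-site peak (chr9:64021874-64022393) at 0.00 ± 0.227 (adjusted p = 0.996).

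Smad7, the inhibitory Smad that brings Smurf ligases to the receptors, had 6 tested peaks, of which 2 rose over the mean, both beyond its lower-coordinate end, and none fell. Of all tested peaks outside genes, 5.64% were called higher over the mean and 13.0% lower. The farther peak, 22.29 kb beyond the lower-coordinate end (chr18:75344921-75345231), held 13.8 and 15.3 CPM in untreated cells, 40.9 and 34.1 after 24 h, 37.0 and 29.1 after 48 h, and 32.4 and 37.6 after 72 h. All 6 treated libraries were above both untreated ones, and the 3 treated groups overlapped one another. The peak passed the filter on low counts only through its treated libraries, in which it is high. Its p-values thus describe a peak that had to differ to be tested. It rose over the mean (1.24 ± 0.342, adjusted p = 0.00682), after 24 h (1.32 ± 0.381, adjusted p = 0.0142) and after 48 h (1.18 ± 0.389, adjusted p = 0.0364), and its value after 72 h was 1.22 ± 0.438 (adjusted p = 0.0531). With no such filter the edgeR adjusted p was 0.00652 over the mean, 0.0142 after 24 h and 0.035 after 48 h. Without control replicate 1 the adjusted p was 0.0534 over the mean, 0.066 after 24 h and 0.125 after 48 h, and without control replicate 2 it was 0.161, 0.167 and 0.232. It was 0.0924 after 24 h without 24 h replicate 1 and 0.257 after 48 h without 48 h replicate 1.

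The nearer Smad7 peak, 3.96 kb beyond the same end (chr18:75363134-75363673) and within the long noncoding gene Gm20544, held 24.8 and 35.2 CPM in untreated cells, 40.9 and 38.2 after 24 h, 72.8 and 73.6 after 48 h, and 43.9 and 53.3 after 72 h. All treated libraries were above the untreated ones, and both 48 h libraries were above all others. It rose after 48 h (1.21 ± 0.27, adjusted p = 0.00112), and this call held without each library of the comparison in turn. Over the mean it rose by 0.71 ± 0.259 (adjusted p = 0.0435), a call lost without control replicate 1 (0.269) or 2 (0.155), 24 h replicate 1 (0.0615) or 2 (0.0525), 48 h replicate 1 (0.0517) or 72 h replicate 2 (0.0849). The peak inside the gene (chr18:75375342-75375988) held 96.3 and 90.2 CPM in untreated cells, 119 and 124 after 24 h, 107 and 144 after 48 h, and 118 and 135 after 72 h. It was at 0.42 ± 0.163 (adjusted p = 0.0622), which is not a call. Its treated libraries were all above the untreated ones, and the share of all peaks with such a split was not computed. The 4 tested Smad7 peaks with no call lay between -0.12 and 0.46.

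Smurf1, a ligase for Smads and receptors, had 6 tested peaks, of which 2 fell over the mean, both inside the gene, and none rose. Over the mean, 8.90% of all tested peaks inside genes were called lower. With the other comparisons counted, 3 of the 6 fell in at least 1 and none rose. The share of all tested peaks that fell in at least 1 was not computed, so these 3 have no background here. The strongest of the 3, 15.78 kb into the gene (chr5:144949657-144950587), had the smallest adjusted p of the 45 peaks over the mean. It held 138 and 147 CPM in untreated cells, 109 and 98.2 after 24 h, 86.0 and 94.1 after 48 h, and 60.1 and 91.0 after 72 h. All 6 treated libraries were below both untreated ones, and the lowest was after 72 h. It fell over the mean (-0.71 ± 0.154, adjusted p = 0.000466), after 48 h (-0.68 ± 0.179, adjusted p = 0.00658) and after 72 h (-0.97 ± 0.219, adjusted p = 0.00144), and its value after 24 h was -0.47 ± 0.174 (adjusted p = 0.06). Without control replicate 2 the adjusted p was 0.107 over the mean, 0.17 after 48 h and 0.0525 after 72 h, without 48 h replicate 1 it was 0.0757 after 48 h, and without 72 h replicate 1 it was 0.156 after 72 h.

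A neighbouring peak 19.64 kb into Smurf1 (chr5:144946066-144946449) held 57.8 and 87.1 CPM in untreated cells, 59.7 and 49.1 after 24 h, 47.6 and 42.8 after 48 h, and 37.0 and 43.9 after 72 h. The 48 and 72 h libraries were below both untreated ones, and the first 24 h library lay between them. It fell over the mean (-0.73 ± 0.207, adjusted p = 0.00799), after 48 h (-0.75 ± 0.243, adjusted p = 0.0297) and after 72 h (-0.94 ± 0.294, adjusted p = 0.0233). Without control replicate 2, the higher of the untreated pair, the adjusted p was 0.652, 0.677 and 0.49 over the mean, after 48 h and after 72 h. It was 0.0885 and 0.119 after 48 h without 48 h replicate 1 or 2, and 0.222 and 0.0603 after 72 h without 72 h replicate 1 or 2.

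The third Smurf1 peak, 34.97 kb into the gene (chr5:144930733-144931124), held 60.5 and 52.0 CPM in untreated cells, 63.1 and 55.9 after 24 h, 42.3 and 39.3 after 48 h, and 13.9 and 34.5 after 72 h. The 72 h libraries were the lowest, and those of 24 h overlapped the untreated ones. At 72 h its value was -1.27 ± 0.367 (adjusted p = 0.0131), with an adjusted p of 0.0588 without control replicate 2 and 0.406 without 72 h replicate 1. The 3 tested Smurf1 peaks with no call lay between -0.21 and 0.31 over the mean, among them a peak 0.73 kb inside the start that was in the untreated list alone.

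Among the 8266 tested peaks with another assigned gene and at least the median level (35.5 mean CPM), the 3 whose log2(CPM + 1) followed the strongest of these Smurf1 peaks most closely over the 8 libraries were near Wnt7b (chr15:85546513-85547128, Pearson r 0.994), Oaf (chr9:43241362-43241777, r 0.969) and Sec11c (chr18:65794685-65795122, r 0.966). They share the libraries and were chosen for this likeness, so the r values are a description. Their log2 fold changes over the mean were -0.64, -0.71 and -1.08.

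Smurf2, the closest relative of Smurf1, had a single tested peak, with few reads. It lay 0.24 kb before the start site (chr11:106920869-106921105), over the Smad element printed above, and had 2 and 1 reads in untreated cells, 6 and 6 after 24 h, 17 and 10 after 48 h, and 10 and 6 after 72 h. In CPM these were 5.50 and 1.53, 10.2 and 8.19, 22.5 and 17.1, and 23.1 and 18.8, so that all treated libraries were above the untreated ones and those of 48 and 72 h above those of 24 h. The treated libraries together held 55 reads against 3, a depth-adjusted ratio of 5.47 with an exact 95% interval of 1.78 to 27.3 that covers counting error only. The ratio was 3.09 after 24 h (0.833 to 17.0), 6.83 after 48 h (2.1 to 35.2) and 7.22 after 72 h (2.07 to 38.7). In edgeR the adjusted p was 0.00803 over the mean, 0.226 after 24 h, 0.00507 after 48 h and 0.00889 after 72 h. The peak passed the filter on low counts through its 48 and 72 h libraries alone, the groups in which it is high, so these p-values describe a peak that had to differ to be tested. With all 23623 peaks in the fit and no such filter they were 0.00546 over the mean, 0.00324 after 48 h and 0.00609 after 72 h.

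The fitted log2 fold changes of the Smurf2 peak were 2.33 over the mean (SE 0.661), 1.55 after 24 h (SE 0.832), 2.68 after 48 h (SE 0.689) and 2.76 after 72 h (SE 0.755), and they depend on the fit's prior count. The peak is in the 48 and 72 h lists only. The other Smurf2 peak, 33.54 kb upstream (chr11:106954188-106954389), was too low to test, at a mean of 13.2 CPM. Without control replicate 2 the adjusted p was 0.348 over the mean, 0.239 after 48 h and 0.219 after 72 h, without 48 h replicate 1 it was 0.0693 after 48 h, and without 72 h replicate 1 it was 0.11 after 72 h. Boundary peaks of the whole table were also higher more often than lower after 72 h, with 14.2% called higher and 0.929% lower.

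**Figure D3:**
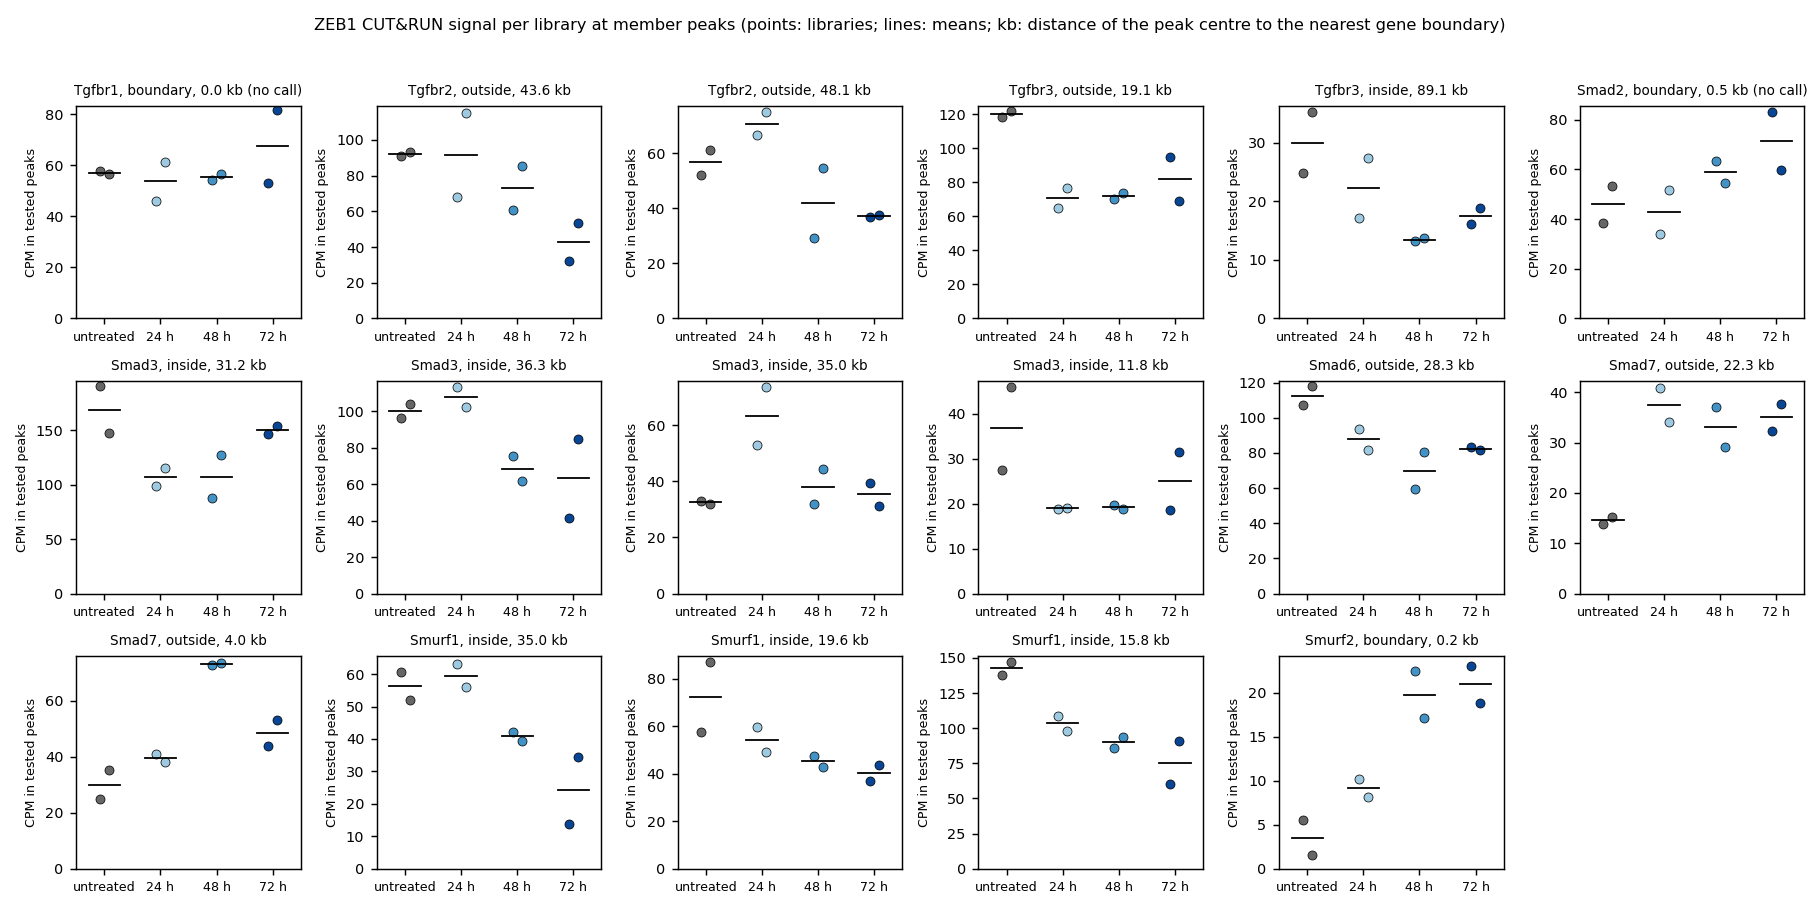
ZEB1 signal per library (y axis, CPM in tested peaks, each panel with its own scale from 0) by group (x axis) for the 15 called peaks and for the strongest peak of Tgfbr1 and of Smad2, which had no call (points: libraries; lines: means of 2). The Smurf2 panel starts at 5.50 and 1.53 CPM in untreated cells, and the Smurf1 panel at 15.78 kb has all 6 treated libraries below 138 CPM.

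Later against earlier treatment, 72 h was set against 24 h, a contrast between treated groups alone. The count filter, the scaling and the estimate of spread still came from all 8 libraries, the untreated ones included. None of the 45 peaks rose and 4 fell (8.89%, where 4.71% of all tested peaks were called, 2.32% higher and 2.39% lower). The median log2 fold change of the 45 was -0.101, against -0.00509 over all tested peaks. DESeq2 gave an adjusted p to 7 of the 45 and called none, where it called 0.222% of the 2703 peaks with an adjusted p in the table, and it had 5 of the 45 at an unadjusted p below 0.05 against edgeR's 14.

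The Tgfbr2 peak 43.56 kb upstream held 32.4 and 53.3 CPM after 72 h and 68.2 and 115 after 24 h (-1.18 ± 0.277, adjusted p = 0.00558). The Tgfbr2 peak 48.15 kb upstream (chr9:116223391-116223627) held 37.0 and 37.6 CPM after 72 h and 66.5 and 75.0 after 24 h (-0.93 ± 0.294, adjusted p = 0.0453), with 29.1 and 54.7 after 48 h and 52.3 and 61.1 in untreated cells. In both peaks the 72 h libraries were below those of 24 h. The adjusted p of the first was 0.245 without 24 h replicate 2 and 0.216 without 72 h replicate 1, and that of the second was 0.184 and 0.236 without these, 0.0767 without 24 h replicate 1 and 0.166 without 72 h replicate 2.

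The Smad3 peak 36.28 kb into the gene held 41.6 and 84.7 CPM after 72 h and 113 and 102 after 24 h (-0.83 ± 0.239, adjusted p = 0.0272). The Smurf1 peak 34.97 kb into the gene held 13.9 and 34.5 CPM after 72 h and 63.1 and 55.9 after 24 h (-1.38 ± 0.345, adjusted p = 0.00973). Neither pair of groups overlapped, and in both peaks the first 72 h library was the lowest. Without 72 h replicate 1 the adjusted p was 0.603 for Smad3 and 0.37 for Smurf1. It was 0.111 and 0.0599 for Smad3 without 24 h replicate 1 or 2, and 0.0538 for Smurf1 without 24 h replicate 1.

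**Figure D4:**
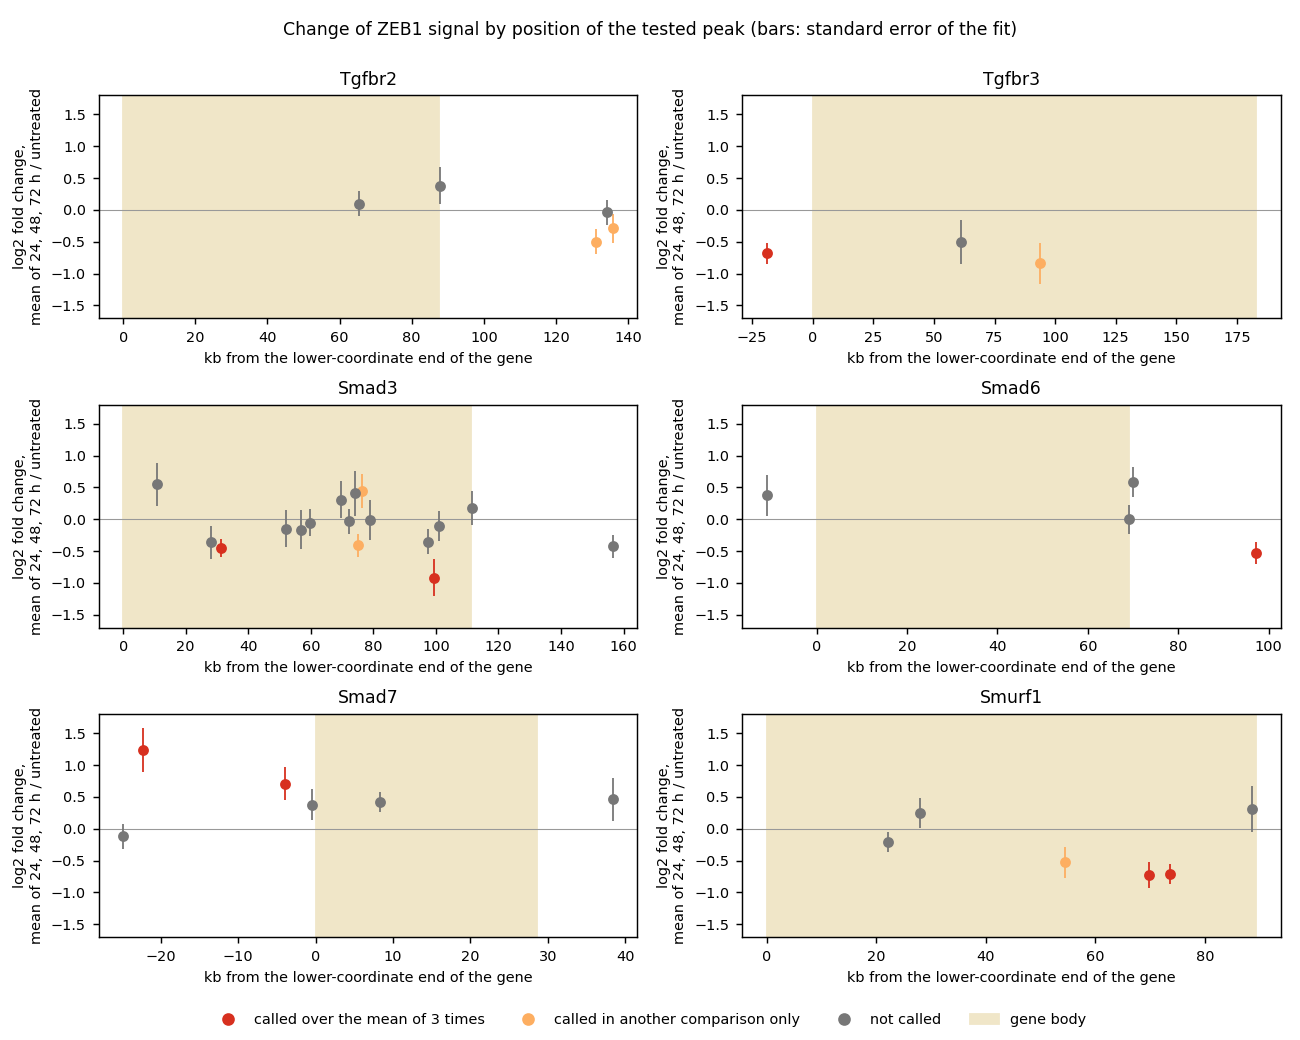
Log2 fold change of the mean of 24, 48 and 72 h over untreated cells (y axis, with the standard error of the fit) against the position of the tested peak (x axis, kb from the lower-coordinate end of the gene, gene body shaded) for the 6 genes with 3 or more tested peaks. The called Smurf1 peaks cluster inside the gene at -0.73 and -0.71, and those of Smad7 lie outside its lower end at 1.24 and 0.71.

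The rest of the pathway was read from a list of 47 genes, 46 of them in the gene table, with 133 peaks near 41 genes, 111 tested. Over the mean of the 3 times 9 rose, 9 fell and 93 were not called (16.2%, against 16.8% of all tested peaks), with a median log2 fold change of -0.0973. At 24 h 5 rose and 3 fell (7.21%, against 11.0% of all tested peaks), after 48 h 5 rose and 7 fell (10.8%, against 11.5%), after 72 h 7 rose and 3 fell (9.01%, against 12.6%), and for 72 h against 24 h 3 rose and 1 fell (3.6%, against 4.71%). The count over the mean was 1 in DESeq2, 9 without control replicate 1 and 4 without control replicate 2.

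The 5 peaks that rose most over the mean were near Ldlrad4, Eng, Skil and Ltbp1. The Ldlrad4 peak 1.09 kb inside and the Eng and Skil peaks passed the filter on low counts only through treated libraries, in which they are high. Their untreated libraries held 8.25 and 4.59, 11.0 and 6.11, and 11.0 and 10.7 CPM, in that order. The Ltbp1 peak held 13.8 and 22.9 CPM in untreated cells, just 1 library high enough for the filter, which asks for 2. It too thus passed only with treated libraries, in which it is high. The calls of all these peaks are no support for the counts above. Ldlrad4, which keeps receptor-activated Smads from the receptor, had a peak 6.44 kb inside the gene (chr18:67938454-67938978) with 19.3 and 38.2 CPM in untreated cells, 75.0 and 55.9 after 24 h, 72.8 and 71.9 after 48 h, and 78.6 and 84.7 after 72 h. All treated libraries were above the untreated ones, at a log2 fold change of 1.20 ± 0.244 (adjusted p = 0.00018), and this peak, the only one of the list that DESeq2 called over the mean (adjusted p = 0.0488), held without each library in turn. A second Ldlrad4 peak, 1.09 kb inside (chr18:67933169-67933563), was at 2.03 ± 0.478 (adjusted p = 0.00127, and 0.195 without control replicate 2). Eng, the co-receptor endoglin (chr2:32685933-32686131, inside the gene), was at 1.55 ± 0.447 (adjusted p = 0.00933, and 0.36 without control replicate 2 and 0.0535 without 72 h replicate 1). Skil, a Smad corepressor (chr3:31095512-31095874, at its boundary), was at 1.18 ± 0.404 (adjusted p = 0.0326, and 0.114, 0.314 and 0.0989 without control replicate 1, control replicate 2 or 72 h replicate 2). Ltbp1, which stores latent TGF-beta in the matrix (chr17:75258547-75259004, inside the gene), was at 1.04 ± 0.315 (adjusted p = 0.0138, and 0.144 and 0.084 without control replicate 1 or 2).

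The 5 peaks that fell most over the mean were near Nedd4l, Fst, Tgfbi and Furin. The Nedd4l peak inside the gene passed the filter on low counts only through its untreated libraries, at 33.0 and 19.9 CPM. Each of its treated libraries held 10.3 CPM or less. The Fst peak too passed only through its untreated libraries, at 24.8 and 27.5 CPM, since just 1 treated library, at 20.8 CPM, was high enough. The calls of both peaks are no support for the counts either. Nedd4l, a relative of the Smurfs that marks phosphorylated Smads, had a peak inside the gene (chr18:64962150-64962646) at -1.46 ± 0.417 (adjusted p = 0.00892, and 0.166 without control replicate 1) and a peak outside it (chr18:64839540-64839827) at -1.0 ± 0.27 (adjusted p = 0.00533, and 0.654 without control replicate 2). Fst, the activin antagonist follistatin (chr13:114501024-114501278, outside the gene), was at -1.05 ± 0.364 (adjusted p = 0.0344), and the adjusted p was 0.0902, 0.374, 0.0657 and 0.0508 without control replicate 1, control replicate 2, 24 h replicate 2 or 48 h replicate 1. Tgfbi, a matrix protein named for its induction by TGF-beta (chr13:56582122-56582503, outside the gene), was at -0.96 ± 0.266 (adjusted p = 0.00733, and 0.0579 and 0.124 without control replicate 1 or 2). Furin, the protease that cleaves pro-TGF-beta (chr7:80404182-80404475, inside the gene), was at -0.75 ± 0.232 (adjusted p = 0.0159, and 0.746 without control replicate 2).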

How the data were processed

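ZEB1 CUT&RUN libraries (EpiCypher CUTANA kit, paired-end 76 bp, per the labels) were processed by the authors with tools that the submitters' processing notes list without role, Bowtie2 2.2.6 with bcl2fastq 2.20.0.422, cutadapt 2.4 and Picard, featureCounts, bedtools 2.30.0, MACS2 2.1.1 and deepTools, on GRCm38. The deposited table holds raw counts per consensus peak. The deposited peak lists, 1 per group, give a fold over IgG and the −log10 of q as the authors' values, and their integer score, also deposited, was not used. Per the file's own peak names, each list compares replicate 1 with IgG, and how replicate 2 entered is not stated there.

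Members, gene lists and tests were chosen with earlier results of these data known. Peaks were assigned with the RefSeq gene table of GRCm38.p6. Counts of the 8 libraries were fitted in edgeR 4.0.16 (R 4.3.3): filterByExpr by group kept 21192 of 23623 peaks (89.7%), TMM factors were 0.994 to 1.01, and a robust quasi-likelihood model with 1 mean per group left 4 residual degrees of freedom. A call is a p below 0.05 after Benjamini-Hochberg adjustment across the whole table, and the standard error is the log2 fold change divided by the square root of F. The script was tested on simulated counts. DESeq2 1.42.0, its size factors, no count filter, thinning to 326944 reads, summed replicate pairs, a replicate block, a 10 kb window and leaving out each library were alternatives. Values are given in full for every called peak and, for a gene with none, its strongest tested peak. Other values, among them start-site peaks, a Smad7 peak and promoters, were chosen after they were seen. Of the other pathway genes, the 5 largest called changes in each direction are named. Intervals and floors cover counting error only.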

Additional observations from a re-analysis of the deposited data

Results flagged for a closer look

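At 4 peaks the change after 72 h in eribulin differed from that after 24 h when 72 h was set directly against 24 h, with the edgeR adjusted p-values given above. The log2 differences were -1.18 and -0.93 at the Tgfbr2 peaks 43.56 and 48.15 kb upstream, -0.83 at the Smad3 peak 36.28 kb into the gene and -1.38 at the Smurf1 peak 34.97 kb into the gene, all with both 72 h libraries below both 24 h libraries. Each of the 4 lost its call without 72 h replicate 1. DESeq2 gave log2 differences of -1.13, -0.92, -0.80 and -1.36 at these peaks in the same order, with an adjusted p for the Smad3 peak alone (0.37). No group has enough libraries for a check of single outlying samples.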

How the results depend on the processing

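Of the 34 called values, all kept their sign under every alternative that could test them. All 34 kept their call with DESeq2 size factors and without the count filter, 32 with replicate pairs summed (highest adjusted p 0.061) and 11 of 31 with libraries thinned to the smallest. In DESeq2 none of the counts of called peaks was above 0 in any of the 5 comparisons, with 23 of the 34 values at an adjusted p of 0.129 to 0.541, 11 without one, and 27 at an unadjusted p below 0.05. Thinned, the counts were 5 over the mean, 1 after 24 h, 3 after 48 h, 3 after 72 h and 1 for 72 h against 24 h. With a window of 10 kb (42 peaks, 35 tested) the counts were 3 after 24 h and 2 for 72 h against 24 h, and the others stayed within 1.5 times. Leaving out each library gave 1 to 11 called peaks over the mean, 1 to 3 after 24 h, 1 to 8 after 48 h, 0 to 6 after 72 h and 0 to 3 for 72 h against 24 h. The whole table lost calls too: over the mean it held 1752 higher and 1807 lower peaks of 21192, with 312 and 351 of 22132 without control replicate 2 and 689 and 838 of 16338 after thinning. The cause was not tested. For the other pathway genes, where 18 peaks were called over the mean, DESeq2 called 1, thinning left 5 and leaving out a library left 4 to 17. The Tgfbr1 start peak, which was not called, ran from -0.08 to 0.14 over the mean when each library was left out, turning negative without 24 h replicate 2 (-0.05) and 72 h replicate 2 (-0.08).

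Deviations of same-numbered libraries correlated at -0.0287 to 0.00116. Replicates differed by about counting error, so this check could not exclude that replicate numbers pair the samples. With the replicate block the calls were 11 over the mean, 5 after 24 h, 8 after 48 h, 6 after 72 h and 3 for 72 h against 24 h, and 31 of the 34 values kept their call (highest adjusted p 0.0687). Counts in the lists moved by less than 1.5 times with a −log10 q of at least 5 or under the stricter overlap. The median peak held 10 to 24 reads per library, and the smallest change called among these peaks was -0.45 on the log2 scale.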

Other observations

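At the edge of the 50 kb window, the last 2 Tgfbr2 peaks counted lay 46.59 and 48.15 kb from the gene. Their log2 fold changes over the mean were -0.04 and -0.29 (edgeR adjusted p = 0.904 and 0.403). The nearest peak beyond the window was 81.41 kb from Smad3 (chr9:63839153-63839653), between 55.9 and 119 CPM over the 8 libraries. It was at a log2 fold change of -0.60 over the mean (edgeR adjusted p = 0.00866), a call that the 50 kb rule leaves out. Whether this call holds in DESeq2 or without single libraries was not examined.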
